A study of Mus musculus with 24 samples.

Results

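Control cells from which doxycycline had been taken away were compared with control cells that kept it. The comparison used 6 of the 24 libraries of the series, chosen by the labelled construct, treatment and replicate number, with no measured value entering the choice. Of these, 3 libraries had doxycycline for 13 days at 1 µg/mL (called continued below), and 3 were taken at day 13 after the drug had been removed on day 10 (called withdrawal). All 6 held RNA of fetal liver cells from E12.5 to 13.5 embryos of a mouse strain on the B6J background that carries Cas9 and EGFP under the general CAG promoter at the ROSA26 locus. Every group, the controls included, carried the guide sgGata1, and the labels call the cells Gata1s-FLCs. GATA1s is the short form of the blood transcription factor GATA1 that lacks the amino-terminal part. The 6 libraries also carried the second construct miR-ctrl, a control for miR-125b. In 6 further libraries with miR-125b in its place the same withdrawal was made, and these serve below as the nearest comparison. They share no library with the control comparison. The labels do not say whether miR-ctrl itself responds to doxycycline, which promoter drives it, or whether the replicates were separate cultures or embryos. The p-values thus measure only the spread between libraries of the series, part of which may be technical. Xist and a Y-linked gene differed by replicate number, as given below.

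Doxycycline is a tetracycline antibiotic that blocks protein synthesis on bacterial ribosomes. It is also the usual switch for inducible constructs in mammalian cells. Mitochondria have ribosomes related to those of bacteria, and tetracyclines are known to slow mitochondrial translation, to unbalance respiratory chain subunits made in the mitochondrion and the nucleus, and to set off the ATF4 stress response in cultured cells. The comparison asks how control cells differ with and without the drug. Most gene lists described below follow these known actions, the blood cell types of fetal liver and the subject of the series. The list of RNA polymerase II subunits does not, and it holds Polr2k, the gene called below. All lists were chosen with earlier results of these data known.

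The 6 libraries held 16414818 to 23755245 counts and 16532 to 17890 genes with at least 1 count. The labelled cell type was checked against markers. Megakaryocyte genes summed to 5329 to 10400 CPM (counts scaled to a common library total after TMM normalisation) per library, and Itga2b, the platelet integrin chain, alone reached 1071 to 2150 CPM. Erythroid genes summed to 1442 to 1897 CPM, with Slc4a1 at 0 in all 6 libraries. Stem and progenitor genes summed to 2028 to 2929 CPM, with 5 of 26 at 0 in all 6 libraries, Hoxa9 and Mecom among them. Of 18 hepatocyte markers, 11 were at 0 in all 6 libraries, Alb and Ttr among them, and the list summed to 2.35 to 4.30 CPM. Lymphoid markers summed to 5.319 to 8.502 CPM, with Cd3e at 0, and the endothelial and stromal markers to 187 to 220 CPM, with Pdgfra at 0. The markers of granulocytes, macrophages and mast cells were above these low lists, at 1295, 405 and 444 CPM in the continued libraries and 1150, 394 and 367 CPM in the withdrawal libraries of replicates 1, 2 and 3. The high value belonged to replicate 1 in both treatments, where the protease gene Gzmb alone was at 1189 and 1048 CPM. It therefore reflects mostly a single gene. The list members Cpa3, Ms4a2 and Lyz2 were highest in replicate 2 in both treatments.

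Replicate number, not treatment, separated the 6 libraries. Replicate number accounted for a median of 72.7% of a gene's variance over 9847 genes and treatment for 6.28%. Of the variance, 61.8% lay on the first principal component, and 98.9% of that lay between replicate numbers. In an edgeR quasi-likelihood test within the 6 libraries, 3035 of 12481 genes differed by replicate number (24.3%). Xist, the RNA that coats the inactive X chromosome of female cells, was at 34.4, 1384 and 866 CPM in the continued libraries and at 34.7, 1660 and 924 CPM in the withdrawal libraries. Eif2s3y, a gene of the Y chromosome, was at 91.6, 1.28 and 34.2 CPM and at 90.5, 1.62 and 33.7 CPM. Replicate 1 thus read low for Xist and high for Eif2s3y, replicate 2 the reverse, and replicate 3 was intermediate for both. Gzmb, a granule protease, was at 1189, 83.0 and 343 CPM and at 1048, 73.8 and 280 CPM. Ppbp, a platelet chemokine precursor, was at 20.6, 226 and 29.5 CPM and at 17.5, 218 and 23.6 CPM. Gbp4, an interferon-induced GTPase, was at 56.4 and 83.6 CPM in the replicate 2 libraries and at 7.88 CPM or less in the others, and Vill, a gene of the villin family, at 50.7 and 60.8 CPM against 3.70 CPM or less. These 6 genes kept their order over replicates in both treatments, and they were named for their low p in that test.

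The withdrawal library of replicate 1 stood apart from the rest. The 13 protein-coding genes of the mitochondrial genome took 3.07% of its counts, and at most 1.81% in any of the other 23 libraries. It had the fewest genes detected of all 24, 16532, the lowest scaling factor, 0.932, and the largest share in its 10 most abundant genes, 6.80%. The counts of the continued and withdrawal libraries of replicate 1 differed by a chi-square of 42.1 per degree of freedom, against 5.87 for replicate 2 and 4.58 for replicate 3. Values without this pair, from the fit with replicate number as a block, are given beside the results it bears on.

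Across the transcriptome, no difference between withdrawal and continued libraries passed the test that ignores the replicate pairs, and 1 gene passed when they were taken into the fit. Of 13419 genes tested, 0 (0%) had an adjusted p under 0.05 in edgeR's quasi-likelihood test over the 8 groups with Benjamini-Hochberg adjustment, while 356 had an unadjusted p under 0.05. The replicate numbers pair the libraries, and with the replicate number as a block 1 gene passed, Polr2k (0.00745% of genes), with 608 at an unadjusted p under 0.05. Of these, 288 were higher (2.15%) and 320 lower (2.38%) after withdrawal. DESeq2 called 8 genes, Polr2k, Snhg8, Rps29, Snord104, mt-Co2, Gm8430, Gm14303 and Gm38973. Withdrawal libraries lay wholly above the continued libraries for 301 genes (2.24%) and wholly below them for 373 (2.78%). The difference was positive in all 3 replicate pairs for 1968 genes (14.7%) and negative in all 3 for 1815 (13.5%).

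The intervals show which sizes of difference these libraries leave possible. The 95% interval of the withdrawal to continued ratio lay within 2-fold in both directions for 9759 of 13417 genes (72.7%) without the block and for 10585 of 13419 (78.9%) with it. It lay within 1.5-fold for 7439 genes (55.4%) and 8502 genes (63.4%). Among the 8601 genes with at least 10 CPM on average, the share within 1.5-fold was 82.8% without the block and 92.0% with it. For the remaining genes the interval reached past that size. The blocked interval of mt-Co2, from 1.05 to 2.245 on the log2 scale, lay wholly beyond 2-fold, though its level is uncertain because of a copy, as given below. The median standard error of a log2 fold change was 0.18 without the block and 0.14 with it. Errors after ± below are standard errors without the block, unless SD, the block or a left-out pair is named. They therefore include the spread between replicate numbers. For Klf1, which varied by replicate, the error was 0.55 without the block and 0.24 with it, and for Slc2a1 it was 0.31 in both.

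Polr2k encodes a small zinc-binding subunit that RNA polymerases I, II and III share (chromosome 15, 36174010 to 36177010, plus strand, GRCm38). It read 51.0, 40.2 and 41.1 CPM in the continued libraries and 26.2, 28.9 and 28.1 CPM in the withdrawal libraries. The groups did not overlap, and the continued libraries were above all other 21 libraries of the series. Among those 21, control libraries on the drug read 22.2 to 26.9 CPM at day 2 and 31.1 to 37.6 CPM at day 10. The day 2 range on the drug thus overlapped that after withdrawal. A run of 174 nt of its transcript is also found in the pseudogene Gm14567. The log2 fold change was -0.67 ± 0.11 (SE; adjusted p = 0.070, edgeR quasi-likelihood test), and with the block -0.66 ± 0.11 (adjusted p = 0.0442). With libraries left out the difference kept its direction, while the adjusted p often passed 0.05. The blocked log2 fold change was -0.72 to -0.56 with any 1 of the 6 libraries left out and -0.51 without the pair of replicate 1. Without the withdrawal library of replicate 1 the blocked adjusted p was 0.289, without the continued library of replicate 1 it was 0.546, and without both it was 0.976. Leaving out the continued library of replicate 2 or 3 gave adjusted p-values of 0.0824 and 0.125, and leaving out the withdrawal library of replicate 3 gave 0.222. With the withdrawal library of replicate 2 left out it was 0.0377, and 7 genes then passed, Polr2k, Rps29, Snhg8, Snord104, Serf2, Gm8430 and mt-Co2. Without the pair of replicate 2, 4 genes passed, Polr2k, Rps29, Snhg8 and Snord104. With the miR-125b construct Polr2k changed by -0.14 ± 0.11, and the difference between the constructs had an unadjusted p of 0.00216 (adjusted p = 0.999, edgeR with the block).

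**Figure D1:**
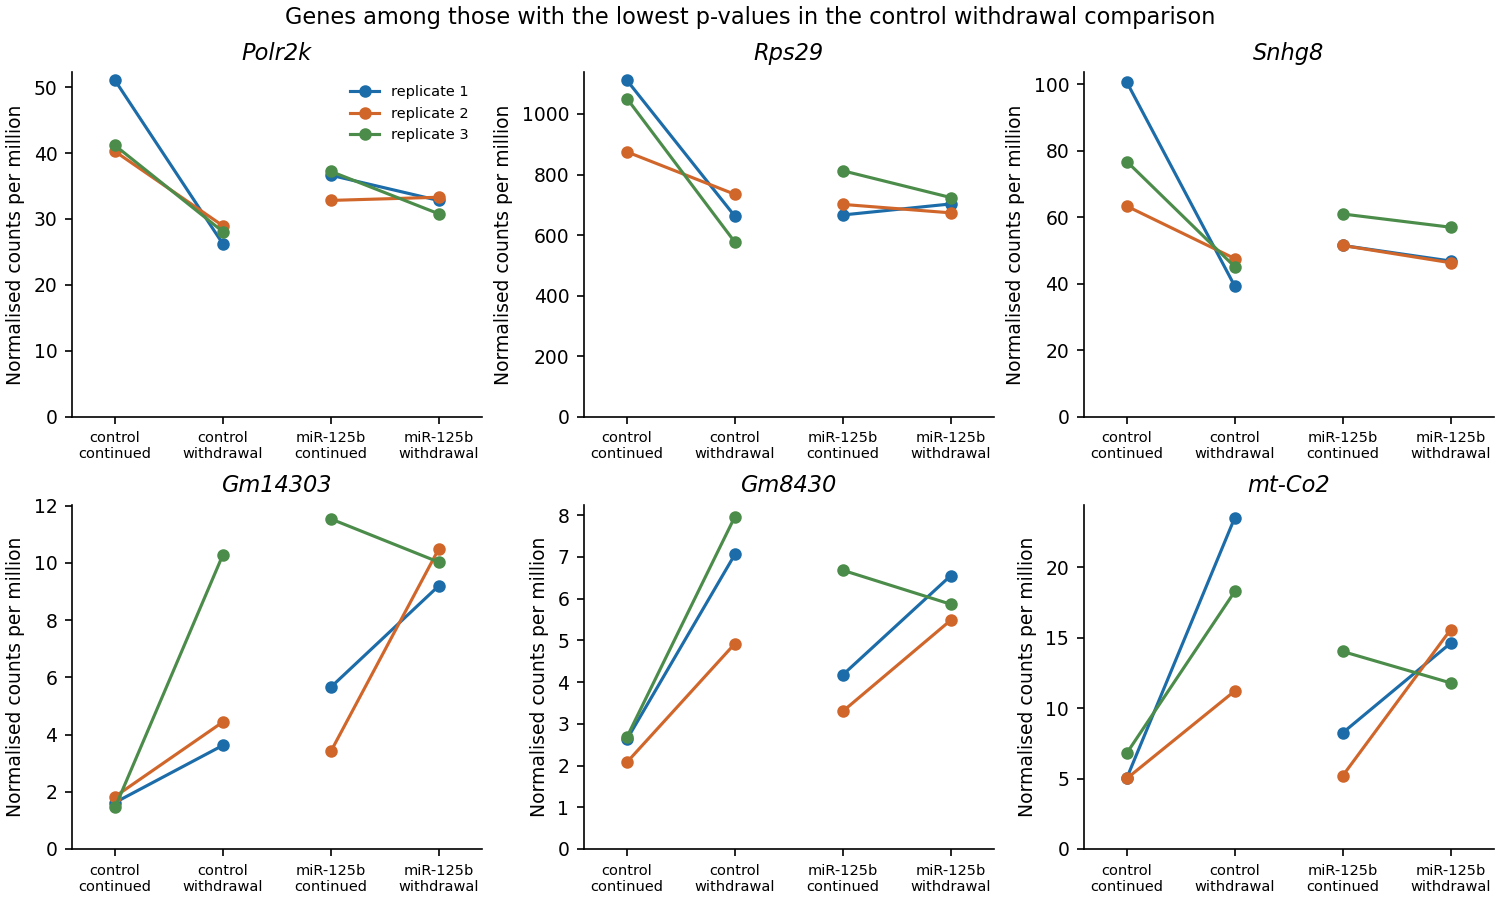
Normalised counts (CPM) in each library for 6 of the genes with the lowest p-values, with lines joining the continued and withdrawal libraries of one replicate number (blue 1, orange 2, green 3) for the control and the miR-125b construct. Polr2k, Rps29 and Snhg8 are lower, and Gm14303, Gm8430 and mt-Co2 higher, in all 3 control withdrawal libraries than in the control continued ones. The miR-125b libraries are drawn beside them on the same axes.

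Of the other 12 subunits on the RNA polymerase II list, none passed the test. The 13 genes, Polr2k included, had a median log2 fold change of -0.13, against a median of 0.01 over all genes tested. Of the 13, 3 were higher and 10 lower, and 5 were lower in all 3 pairs (13.5% of all genes were). Polr2k is counted in the 10 and in the 5, and the list was chosen with earlier results known. These counts are therefore a description. With the offset for transcript length given below, the list's median was -0.06. By pair the list's median was -0.27, -0.08 and -0.04. Polr2a, the largest subunit, was at 277, 218 and 220 CPM in the continued libraries and at 334, 217 and 237 CPM in the withdrawal libraries (log2 fold change 0.14 ± 0.16). It differed in the opposite sense to Polr2k in replicate 1.

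The 8 falling genes with the lowest p in the blocked fit were Polr2k and 7 others, none of which passed the test. They were chosen for a low p and for the same direction in 3 of 3 pairs, so that their values are a description. Snhg8, a non-coding host gene of the small nucleolar RNA Snora24, read 100, 63.3 and 76.7 CPM with continued drug and 39.2, 47.5 and 45.1 CPM after withdrawal (-0.87 ± 0.17). Rps29, a protein of the small ribosomal subunit, read 1111, 875 and 1051 CPM and 662, 735 and 577 CPM (-0.62 ± 0.13). Snord104, a box C/D RNA that guides methylation of ribosomal RNA, read 16.2, 10.0 and 15.1 CPM and 1.72, 7.50 and 5.42 CPM (-1.49 ± 0.33). In each of these the groups did not overlap, and replicate 1 had the lowest withdrawal value of Snhg8 and Snord104 but not of Rps29. Adjusted p-values with the block were 0.124 for Snhg8, 0.172 for Rps29 and 0.247 for Snord104.

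Of the falling genes, 3 encode proteins of the respiratory chain or its assembly. They were grouped after being named, and the share of such genes among all genes tested was not counted. The 73 nuclear respiratory chain genes listed below, which include Ndufab1 but not Atp5k or Pet100, had a median log2 fold change of -0.06. Atp5k, subunit e of the mitochondrial ATP synthase, read 129, 92.3 and 130 CPM and after withdrawal 78.6, 78.9 and 75.3 CPM (-0.59 ± 0.16). Ndufab1, the mitochondrial acyl carrier protein of complex I, read 39.6, 40.8 and 44.2 CPM and after withdrawal 28.1, 33.4 and 36.7 CPM (-0.34 ± 0.10), and shares a run of 331 nt with the pseudogene Gm4459. Pet100, an assembly factor of complex IV, read 36.4, 28.7 and 37.4 CPM and after withdrawal 22.6, 26.9 and 23.3 CPM (-0.49 ± 0.12). Pet100 shares 941 nt of exon with Pcp2 on the opposite strand. Gm44777 overlaps Pik3c2a on the opposite strand over 1369 nt, and it read 8.93, 5.75 and 3.86 CPM against 2.80, 3.63 and 2.84 CPM (-0.999 ± 0.252). Since no source says that the counting used strand, reads of these overlapping genes cannot be told apart. Without the pair of replicate 1 the 8 falling genes, Polr2k among them, were still lower, by log2 fold changes of -0.93 to -0.28. The values that moved most were those of Snord104, then at -0.93 ± 0.23, and Gm44777, then at -0.57 ± 0.25.

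The 8 rising genes with the lowest p in the blocked fit were mt-Co2, Gm8430, Gm14303, Gm38973, Rpl15-ps3, Prrt4, Slc29a3 and Abcg1, and none passed the edgeR test. For 4 of them another gene holds nearly the same sequence. Gm14303 is a processed pseudogene, a copy of a spliced messenger RNA put back into the genome, and all of its 171 nt are found in Rps29. All 615 nt of Rpl15-ps3 are found in Rpl15, and 400 of the 471 nt of Gm8430 form one run found in Rps27a. mt-Co2, which encodes subunit II of cytochrome c oxidase, is identical over 681 nt to Gm28661, a copy of mitochondrial DNA on chromosome 1. The first 30 bases of the run shared by mt-Co2 and Gm28661, from the GENCODE M21 transcripts (GRCm38), are given here because they show that a read from within it has no base that assigns it to one gene. They are in lower case throughout, since the pair does not differ.
mt-Co2: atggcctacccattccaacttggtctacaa
Gm28661: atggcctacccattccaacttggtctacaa
Both stretches are bases 1 to 30 of their transcripts.

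Counts on the 3 processed pseudogenes were low and moved apart from those of their parent genes. The pair of mt-Co2 and Gm28661 is given with the mitochondrial genes below. Gm14303 read 1.62, 1.83 and 1.45 CPM with continued drug and 3.62, 4.44 and 10.3 CPM after withdrawal (1.91 ± 0.44), whereas its parent Rps29 was lower after withdrawal in all 3 pairs. Gm8430 read 2.63, 2.08 and 2.68 CPM and 7.06, 4.92 and 7.96 CPM (1.43 ± 0.30), with its parent Rps27a, a ribosomal protein fused to ubiquitin, at 1382, 1366 and 1421 CPM and 1559, 1319 and 1390 CPM (0.03 ± 0.10). Rpl15-ps3 read 0.76, 0.92 and 0.95 CPM and 2.86, 2.10 and 3.27 CPM (1.64 ± 0.38), with Rpl15, a protein of the large subunit, at 1457, 1545 and 1590 CPM and 1462, 1549 and 1572 CPM (-0.0026 ± 0.083). The parents Rps27a and Rpl15 thus overlapped between the groups while their copies did not.

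As a share of the pair's counts, Gm14303 took 0.138% to 0.209% in the continued libraries and 0.544% to 1.75% in the withdrawal libraries. Gm8430 took 0.152% to 0.190% and 0.372% to 0.570%, and Rpl15-ps3 0.0524% to 0.0597% and 0.135% to 0.208%. For all 3 copies the share in the continued libraries lay below that in each of the other 21 libraries of the series. The copies were named for being higher after withdrawal than in these continued libraries, so their low standing is partly given by the choice. The share also differed between groups with no withdrawal. Gm14303 took 2.17% to 2.85% in the control libraries of day 2, 0.930% to 2.002% in those of day 10, and 0.233% to 0.418% in the miR-125b libraries of day 10. What these shares go with was not tested, and with 3 libraries a group it cannot be told apart from the treatment. By CPM rather than share, 5 of 13419 genes (0.0373%) had all 3 continued libraries below the other 21. Of these, 2 were among the rising 8, Gm8430 and Rpl15-ps3. Gm14303 was not, since the miR-125b libraries of day 10 read down to 1.567 CPM. The continued libraries were above the other 21 for 8 genes (0.0596%), 2 of them among the falling 8, Polr2k and Rps29. The withdrawal libraries were below the other 21 for 8 genes (0.0596%) and above them for 3 (0.0224%), none of these among the rising 8 or the falling 8.

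**Figure D2:**
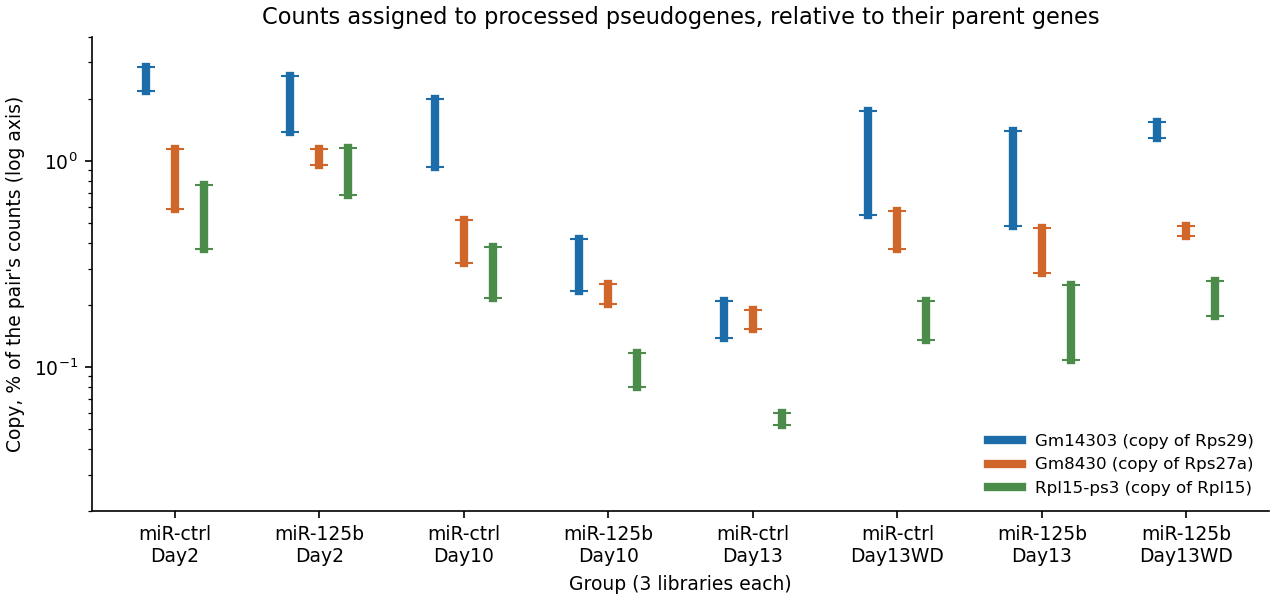
Share of the counts of a gene and its processed pseudogene that was assigned to the pseudogene, in percent on a log axis, for 3 pairs in all 8 groups, with bars from the lowest to the highest of 3 libraries. The control continued group (miR-ctrl Day13) lies lowest for all 3 copies, and the shares also differ between the other groups.

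The remaining rising genes were expressed at low to middle levels. Abcg1, a transporter that exports cholesterol, read 44.3, 65.8 and 69.2 CPM and after withdrawal 98.1, 79.6 and 76.5 CPM (0.50 ± 0.17). Slc29a3, a nucleoside transporter, read 8.45, 6.36 and 6.37 CPM and after withdrawal 13.6, 9.65 and 12.3 CPM (0.74 ± 0.21). With the miR-125b construct Slc29a3 differed by 0.95 (log2, with the block) in the same direction, a value from libraries that the control comparison does not share. Prrt4 read 12.1, 6.30 and 8.72 CPM and 17.6, 12.51 and 13.2 CPM (0.67 ± 0.28), and it differed by 0.64 with miR-125b. Gm38973, a non-coding transcript, read 3.82, 3.67 and 5.09 CPM and 7.25, 10.5 and 8.95 CPM (1.09 ± 0.26). Blocked adjusted p-values were 0.413 for Prrt4 and 0.915 for both Slc29a3 and Abcg1 (edgeR). Without the pair of replicate 1 Abcg1 was at 0.21 ± 0.13, and the other 7 rising genes were at 0.78 to 2.10.

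The mitochondrial genome was read at a higher level after withdrawal in the libraries of replicate 1, and at nearly the same level in the other pairs. Its 13 protein-coding genes took 1.60%, 1.45% and 1.66% of the counts in the continued libraries and 3.07%, 1.53% and 1.81% in the withdrawal libraries. The means were 1.57% ± 0.11 and 2.13% ± 0.82 (SD, n = 3), a difference of 0.564 percentage points (two-sided exact permutation p = 0.3, smallest possible 0.1). The ratio of withdrawal to continued was 1.92, 1.06 and 1.09 in the 3 pairs, and without the withdrawal library of replicate 1 the difference of the means was 0.0968 points. With miR-125b the shares were 1.32%, 1.54% and 1.60% and after withdrawal 1.39%, 1.46% and 1.54%, with no direction shared by the 3 pairs. The mitochondrial ribosomal RNAs took 0.0925%, 0.145% and 0.160% and after withdrawal 0.199%, 0.132% and 0.156%, so that they were higher in replicate 1 and lower in the other 2 pairs.

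Gene by gene, 10 of the 12 mitochondrial genes tested were higher and 2 lower after withdrawal, with a median log2 fold change of 0.47, and 0 passed the test. With the block 7 were higher and 1 lower at an unadjusted p under 0.05, where 2.15% and 2.38% of all genes were, and without the pair of replicate 1 the median was 0.06 with 8 of 12 higher. Of the 12, 6 were higher in all 3 pairs (14.7% of all genes). mt-Co1, subunit I of cytochrome c oxidase, read 6629, 5750 and 6328 CPM and after withdrawal 13850, 6129 and 7110 CPM (0.53 ± 0.19). mt-Nd1, a core subunit of complex I, read 2631, 2364 and 3172 CPM and after withdrawal 5705, 2416 and 3348 CPM (0.49 ± 0.23). mt-Cytb, the cytochrome b of complex III, read 2298, 2427 and 2716 CPM and after withdrawal 4133, 2602 and 3067 CPM (0.40 ± 0.13). In these 3 genes the difference of replicate 1 was several times that of the other pairs.

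mt-Co2 and mt-Nd3 departed from the other mitochondrial genes. mt-Co2 read 5.06, 5.01 and 6.82 CPM and after withdrawal 23.5, 11.2 and 18.3 CPM, higher in every pair (1.65 ± 0.32, blocked adjusted p = 0.0882, edgeR). Its counts, 82 to 425 per library, were far under the 94048 to 217761 of mt-Co1, which is read from the same genome. Its copy Gm28661 had 10, 6 and 121 counts with continued drug and 6, 6 and 4 after withdrawal. That was 8.62%, 6.82% and 49.8% of the pair's counts and then 1.60%, 2.49% and 0.932%, opposite in direction to the processed pseudogenes. In the continued library of replicate 3 mt-Co2 itself had 122 counts, so the group difference may depend on how reads of the pair were assigned. mt-Nd3, another complex I subunit, was lower in 2 of 3 pairs, at 37.5, 19.9 and 35.3 CPM and after withdrawal 21.6, 21.5 and 16.9 CPM (-0.63 ± 0.22). Both belong to the mitochondrial genes with a nearly complete copy on chromosome 1. Identical runs covered 99.6% of mt-Co2 and mt-Atp6, 99.9% of mt-Co3, 99.0% of mt-Nd4l and 98.3% of mt-Nd3, but 63.6% of mt-Nd4 and 31% of mt-Co1. The search covered only annotated pseudogenes in a single stretch of chromosome 1. It found no run of 30 nt or more for mt-Cytb, mt-Nd1, mt-Nd2, mt-Nd5 and mt-Nd6, and copies elsewhere were not looked for. These 5 genes took 0.827% of the counts on average with continued drug and 1.11% after withdrawal, a difference of 0.284 points. Their ratios in the 3 pairs, 1.925, 1.046 and 1.084, were close to those of the whole set of coding genes. The level of mt-Co2 and of the other copied genes is uncertain because of the copies.

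**Figure D3:**
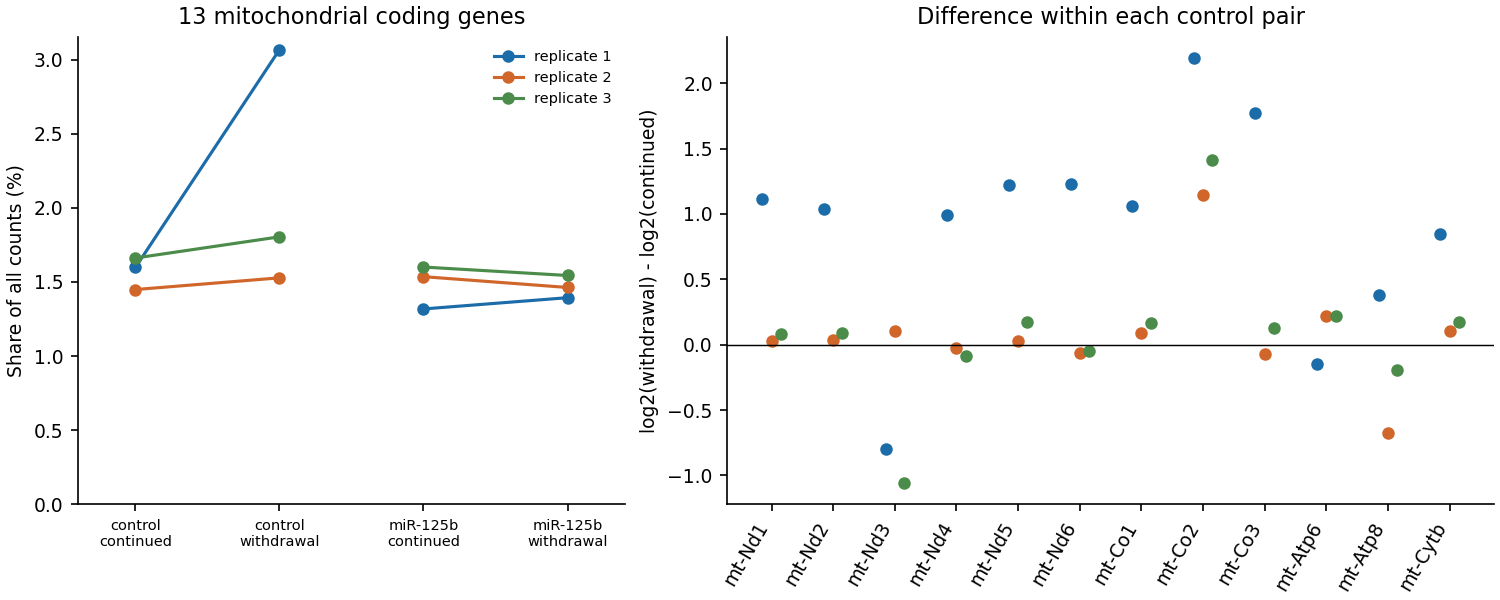
Left, share of all counts taken by the 13 mitochondrial coding genes in each library, in percent, with lines joining libraries of one replicate number. Right, difference within each control pair (log2, withdrawal minus continued) for the 12 genes tested, coloured by replicate number: replicate 1 lies near 1 for most genes, and replicates 2 and 3 lie nearer 0 for most, with mt-Co2, mt-Nd3 and mt-Atp8 farther from 0 in at least 1 of them.

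Nuclear genes of the mitochondrial ribosome and respiratory chain differed little. Of 86 genes of the mitochondrial ribosome and translation, 29 were higher and 57 lower, with a median log2 fold change of -0.05 and a range from -0.27 to 0.20, and 0 passed the test. The blocked intervals of 84 of the 86 lay within 1.5-fold. Mrpl12, a protein of the large mitochondrial subunit, read 69.8, 60.04 and 66.6 CPM and after withdrawal 81.3, 47.4 and 62.4 CPM (-0.04 ± 0.14). Of 73 nuclear genes of the respiratory chain, 24 were higher and 49 lower, with a median of -0.06, and 0 passed. In both lists more members were lower in all 3 pairs than higher, 24 against 6 of 86 and 21 against 7 of 73, where 13.5% and 14.7% of all genes were lower and higher. Ndufs1, the largest subunit of complex I, read 101, 95.1 and 92.6 CPM and after withdrawal 86.6, 82.9 and 91.3 CPM (-0.15 ± 0.07). With an offset for transcript length, described next, the medians were -0.01 and 0.0021.

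The differences followed transcript length, mainly in replicate 1. Among 9518 protein-coding genes with an average log2 CPM of at least 2, the median log2 fold change ran from -0.06 for the 155 genes under 1000 nt of exon to 0.06 for those over 8000 nt. In the pair of replicate 1 it ran from -0.16 to 0.14, in replicate 2 from 0.01 to -0.0006, and in replicate 3 from -0.04 to 0.03. Without the pair of replicate 1 it ran from -0.01 to 0.0087. The Spearman correlation over genes was 0.19, and -0.01 with miR-125b, where the trends of the pairs went in opposite directions. Of genes under 1000 nt, 10.3% were lower at an unadjusted p under 0.05 in the blocked fit, and of genes over 8000 nt 0.611%. Of both the 8 rising and the 8 falling genes 5 were shorter than 1000 nt, against 6.30% of all genes tested. With the length trend of each library taken into the fit, 0 genes passed with or without the block, and Polr2k had a log2 fold change of -0.59 (blocked adjusted p = 0.0566, edgeR).

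**Figure D4:**
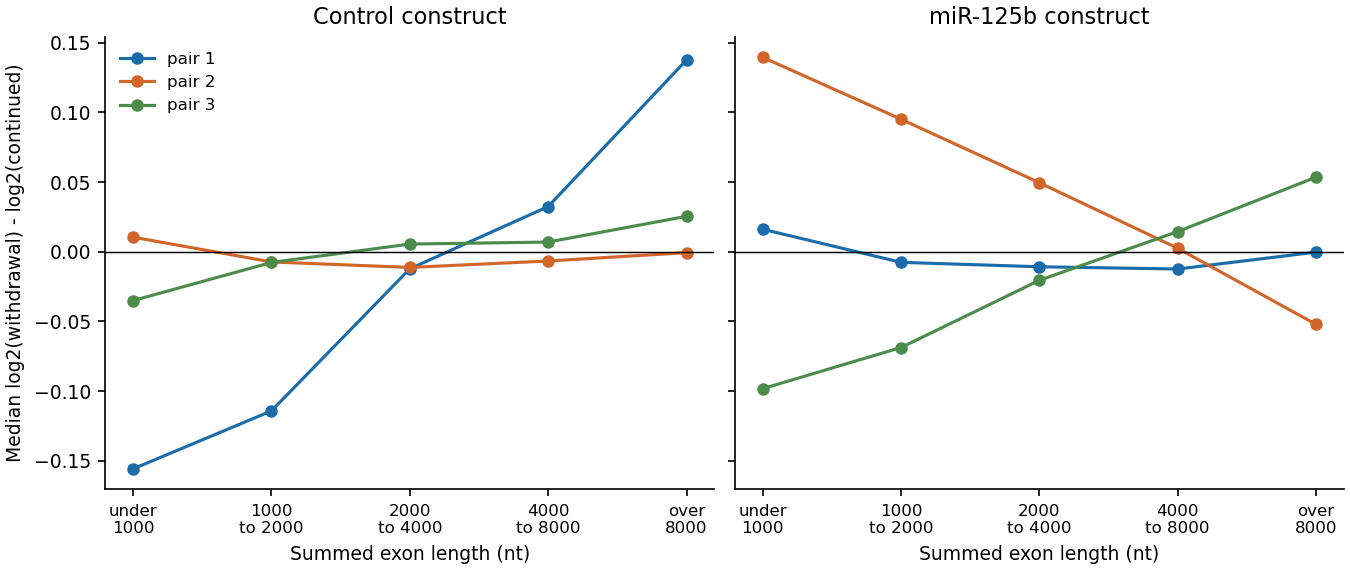
Median difference of log2 level, withdrawal minus continued, of protein-coding genes by summed exon length in nt, for each pair of the control (left) and miR-125b construct (right). In the control pair 1 the median runs from -0.16 in the shortest to 0.14 in the longest genes, and pairs 2 and 3 stay near 0.

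Classes of RNA showed the same library. The 67 small nucleolar RNAs had a median log2 fold change of -0.21, which came to -1.01 in the pair of replicate 1 and to 0.01 and 0.03 in the others (0.02 without the pair of replicate 1). The 318 long intergenic RNAs had a median of -0.13 with pair medians of -0.36, 0.07 and -0.05. The 230 processed pseudogenes behaved otherwise, with a median of 0.09 and pair medians of -0.0007, 0.14 and 0.21, and 20 of them were higher and 4 lower at an unadjusted p under 0.05 in the blocked fit, where 2.15% and 2.38% of all genes were, with 0 passing after adjustment. Without the pair of replicate 1 their median was 0.17. Which property of the libraries these differences go with was not tested.

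Lists of stress and metabolism genes that respond to impaired mitochondria had medians between -0.06 and 0.01. Of 34 genes of the ATF4 and amino acid stress response tested, 18 were higher and 16 lower, the median log2 fold change was 0.01, and 0 had an unadjusted p under 0.05 in the blocked fit. Atf4, the transcription factor that drives this response, read 294, 381 and 289 CPM and after withdrawal 166, 383 and 298 CPM (-0.19 ± 0.19), lower in replicate 1 and level in the others. Of 15 mitochondrial chaperones and proteases, 7 were higher and 8 lower (median -0.01). Hspd1, the chaperone HSP60, read 775, 534 and 703 CPM and after withdrawal 805, 428 and 657 CPM (-0.09 ± 0.18). Of 26 genes of glycolysis and lactate, 8 were higher and 18 lower (median -0.06), with 0 higher and 9 lower in all 3 pairs. The pair medians of that list were -0.04, -0.08 and -0.03, none of its members had an unadjusted p under 0.05 in the blocked fit, and with 1 library left out its median ran from -0.17 to 0.06. The glucose transporter gene Slc2a1 differed by -0.15 ± 0.31. Of 25 cholesterol synthesis genes, 11 were higher and 14 lower (median -0.01). None of these lists had a member that passed.

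Megakaryocyte genes, markers of the platelet-forming lineage that GATA1 directs, had the highest median of the cell type lists with at least 10 genes tested. Of 29 tested, 24 were higher and 5 lower after withdrawal, with a median log2 fold change of 0.15, and 0 passed the test. The median was 0.09, 0.16 and 0.12 in the 3 pairs, and 13 members were higher in all 3 pairs and 2 lower, where 14.7% and 13.5% of all genes were. With 1 library left out and no block the median ran from -0.16, without the withdrawal library of replicate 2, to 0.39, without that of replicate 1. With a whole pair left out and the block it ran from 0.13 to 0.15. With the block 2 had an unadjusted p under 0.05, Vwf, the von Willebrand factor (blocked 0.65 ± 0.28), and Nbeal2, needed for alpha granules (blocked 0.23 ± 0.10). With miR-125b the list's median was -0.05. Itga2b read 1119, 1786 and 1740 CPM and after withdrawal 1071, 2150 and 1856 CPM (0.13 ± 0.22). Gp9, a platelet glycoprotein, read 62.3, 149 and 89.6 CPM and after withdrawal 54.2, 171 and 109 CPM (0.15 ± 0.43). Pf4, a chemokine of the alpha granule, went the other way, with 1612, 3488 and 1518 CPM and 1058, 3305 and 1325 CPM after withdrawal (-0.22 ± 0.45). In these 3 genes the groups overlapped, and the spread between replicate numbers was wider than the difference between treatments. In bulk RNA, fewer cells of a type and less RNA per cell cannot be told apart.

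Erythroid and progenitor genes had medians near 0, and the markers of granulocytes, macrophages and mast cells had the lowest median of the cell type lists with at least 10 genes tested. Of 29 erythroid genes, 16 were higher and 13 lower (median 0.05), and Klf1, the erythroid transcription factor, read 26.8, 11.1 and 36.3 CPM and after withdrawal 34.9, 10.5 and 29.7 CPM (0.01 ± 0.55). Of 19 stem and progenitor genes, 7 were higher and 12 lower (median -0.05), and Kit, the stem cell factor receptor, read 32.4, 29.96 and 22.3 CPM and after withdrawal 37.3, 28.5 and 18.3 CPM (-0.01 ± 0.21). Of 26 genes of granulocytes, macrophages and mast cells, 7 were higher and 18 lower, with a median of -0.16 (-0.22 with the block). In all 3 pairs 0 were higher and 6 lower, and the pair medians were -0.10, -0.10 and -0.31. With 1 library left out and no block the median ran from -0.99, without the withdrawal library of replicate 2, to 0.16, without the continued library of replicate 2. With a whole pair left out and the block it ran from -0.30 to -0.12. Cpa3, a carboxypeptidase of mast cells, read 37.11, 131.5 and 14.25 CPM and after withdrawal 27.85, 131.0 and 12.09 CPM (blocked -0.23 ± 0.67). Ms4a2, a chain of the mast cell IgE receptor, read 5.06, 19.6 and 1.34 CPM and after withdrawal 4.64, 18.5 and 0.732 CPM (blocked -0.22 ± 0.68). Both were lower within every pair, by little in replicate 2, and their groups overlapped. Lyz2, lysozyme, differed by 0.15 ± 0.85, and within pairs by -0.46, 0.26 and 0.0060. Afp, the fetal liver protein alpha-fetoprotein, was at 1.77 to 3.97 CPM in the continued and 1.84 to 3.36 CPM in the withdrawal libraries. Col1a1, a collagen of stromal cells, was at most at 0.795 CPM in any of the 6. No member of these lists passed the test.

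Among proliferation genes, 15 were higher and 20 lower of 35 tested, with a median log2 fold change of -0.03, and 0 passed. Mki67, the proliferation marker Ki-67, read 626, 669 and 722 CPM and after withdrawal 826, 686 and 715 CPM (0.14 ± 0.09). With the block 6 members were lower at an unadjusted p under 0.05, the genes Cdk1, Ccnb1, Aurka, Cdc20, Birc5 and Rrm2, where 2.38% of all genes were. Their log2 fold changes ran from -0.26 to -0.18, and 5 of the 6 were lower in replicates 1 and 2 and slightly higher in replicate 3. Without the pair of replicate 1 the list had 3 members higher and 32 lower, with a median of -0.06. Of 33 p53 targets, 24 were higher and 9 lower (median 0.07), and Cdkn1a, the cell cycle inhibitor p21, differed by 0.13 ± 0.23. Of 27 interferon-stimulated genes, 17 were higher and 10 lower (median 0.06). Of 11 metalloproteinases and inhibitors tested of 21 listed, a family that doxycycline is known to inhibit at the protein level, 5 were higher and 6 lower (median -0.03). Mmp14, a membrane-bound member, read 2.87, 1.22 and 17.5 CPM and after withdrawal 4.32, 1.96 and 20.3 CPM (0.30 ± 0.95), higher within every pair and far apart between replicates.

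**Figure D5:**
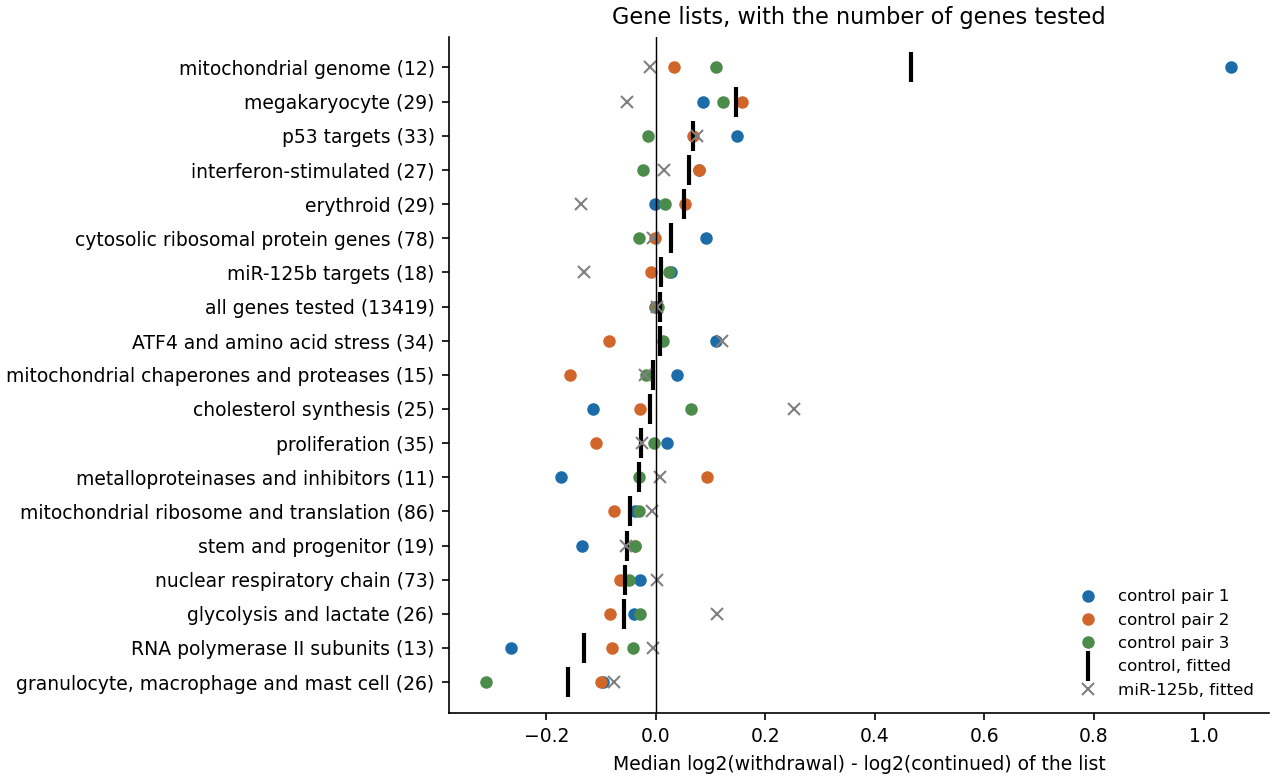
Median log2 difference, withdrawal minus continued, of each gene list with at least 10 genes tested (number in brackets), for each control pair (coloured points), for the fit over the control libraries (black bars) and for the fit over the miR-125b libraries (grey crosses). Apart from the mitochondrial genome, whose pair 1 stands at 1.05, the fitted control medians lie between -0.16 and 0.15.

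The genes at the centre of the series did not pass the test in the control cells. Gata1, the edited gene, read 228, 492 and 344 CPM and after withdrawal 194, 514 and 359 CPM (0.01 ± 0.35, and -0.01 ± 0.15 with the block). A count over the whole gene does not show the edit, which makes it no check of the guide. Arid3a, a DNA-binding protein and a target of miR-125b, read 49.5, 61.5 and 71.9 CPM and after withdrawal 68.1, 64.1 and 76.3 CPM (0.19 ± 0.16). It was higher in all 3 pairs, as 14.7% of all genes were. With miR-125b it averaged 34.1 and 31.8 CPM at day 2 and day 10 with the drug. At day 13 it averaged 52.2 CPM in the continued and 31.2 CPM in the withdrawal libraries. Control groups averaged 58.5 to 69.5 CPM. The miR-125b withdrawal libraries thus read like the earlier ones on the drug. Directions given for miR-125b rest on the labels, and whether those hold was not tested. The miR-125b genes Mir125b-1 and Mir125b-2 and the host gene Mir99ahg had 0 counts in all 24 libraries, so miR-125b itself cannot be followed in these counts. Of 18 miR-125b targets from the literature tested, 10 were higher and 8 lower after withdrawal in control cells, with a median log2 fold change of 0.01 and 0 passing. With the miR-125b construct the median was -0.13, with 2 higher and 16 lower, where 6802 of all genes were higher and 6617 lower.

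With the miR-125b construct, the same comparison gave 0 calls without the block and 7 with it (0.0522% of genes), none of which was called in control cells. Of the 18 miR-125b targets tested, 2 were among the 7. Abtb1, a listed miR-125b target, was lower by -0.85 with miR-125b after withdrawal, while in control cells it read 60.1, 80.3 and 89.7 CPM and 57.0, 86.5 and 86.8 CPM (blocked 95% interval -0.26 to 0.26). Zfp385a differed by -0.54 with miR-125b and by 0.04 in control cells (-0.14 to 0.21), Tmem123 by -0.39 and -0.02 (-0.16 to 0.13), Lin28b, a repressor of the let-7 microRNAs, by -0.56 and -0.19 (-0.40 to 0.02). Cd151, a tetraspanin, differed by 0.64 and 0.16 (-0.09 to 0.40), and Lamc1, a laminin chain, by 0.84 and 0.01 (-0.32 to 0.35). For these 6 genes the control interval did not reach the value seen with miR-125b. They were chosen for passing with miR-125b, and that value has an error of its own, which makes this no test. The test of the difference between the constructs gave an adjusted p of 0.707 for Abtb1 and Zfp385a (edgeR with the block). It gave 0.999 for Tmem123, Lin28b, Cd151 and Lamc1. The 7th gene, Rapgef4, was at 0.301 CPM or less in the 6 control libraries, too low to compare. The test of the difference between the constructs had 0 genes past the threshold without the block (226 at an unadjusted p under 0.05) and 0 (0%) with it (437). Over 13419 genes the log2 fold changes of the constructs had a Pearson correlation of 0.06 and the same sign in 54.0%, a description over genes that share libraries within each construct.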

How the data were processed

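Whole-number read counts per gene, as deposited by the authors, were used for 24 libraries of total RNA. Per the submitters' processing notes, fastp, HISAT2 2.0.5, featureCounts and the mm10 build were used; strand, annotation release and the treatment of multiply mapped reads are not given in the sources used here. Of 47069 identifiers, 46488 matched a name; at most 0.0638% of counts per library of the 6 fell on the others. Names, coordinates and transcripts are from GENCODE M21 (GRCm38).

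Genes were kept with filterByExpr by group (13419). The main fit was edgeR 4.0.16 (R 4.3.3) quasi-likelihood over all 24 libraries with 8 groups and TMM, two-sided, Benjamini-Hochberg adjusted, threshold 0.05. Standard errors and 95% intervals derive from the F statistic. Replicate numbers pair the libraries: deviations of same-numbered control libraries correlated at 0.776, 0.879 and 0.840, those of different numbers at -0.688 to -0.176. The block is an alternative, as are DESeq2 1.42.0, other filters and left-out libraries. The self-test on simulated counts recovered known changes.

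Named were Gata1, Arid3a, genes called, the 8 rising and 8 falling genes with the lowest blocked p (average log2 CPM of at least 2, same direction in 3 pairs), lead genes of 20 lists and, for replicate number, 6 genes. Of the leads, all those of the mitochondrial genome and some of the other lists are printed; other names were added after their values were seen. The members and lists were chosen with earlier results of these data known.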

Additional observations from a re-analysis of the deposited data

Results flagged for a closer look

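For 4 named genes every control pair differed in one direction after withdrawal and every miR-125b pair in the other, and the difference between the constructs did not pass the adjusted threshold for any of them. Arid3a differed by 0.19 in control cells and by -0.74 with miR-125b, a difference of 0.93 ± 0.23 (SE; blocked unadjusted p = 0.000566, adjusted p = 0.835, edgeR quasi-likelihood test). Within pairs it differed by 0.46, 0.06 and 0.08 in control cells and by -0.53, -0.69 and -1.01 with miR-125b. Ndufab1 differed by -0.34 and 0.08, a difference of -0.42 ± 0.14 (unadjusted p = 0.00113, edgeR with the block). Gm44777, which overlaps another gene on the opposite strand, differed by -0.999 and 0.15, a difference of -1.15 ± 0.35 (unadjusted p = 0.00225, edgeR with the block). Hmgcs1, an enzyme of cholesterol synthesis, differed by -0.26 and 0.25, a difference of -0.52 ± 0.31 (unadjusted p = 0.0708, edgeR with the block). The adjusted p of these last 3 genes was 0.999. Ndufab1 and Gm44777 were named for their difference in the control arm, which enters the contrast.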

How the results depend on the processing

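The count of 0 genes for control withdrawal held without the block in every edgeR setting tried: other size factors, no count filter, at least 10 CPM, a newer dispersion estimate, the 2 groups alone, the length offset, and each library left out in turn (0 to 0). It became 1 with the replicate block, 8 with DESeq2 and, with the block, 4 without the pair of replicate 2 and 0 without that of replicate 1 or 3. With miR-125b the count of 0 became 7 with the block, 7 with DESeq2 and 301 with the 2 groups alone and the block, and the difference between the constructs stayed at 0 in all settings run. The replicate block changed no other call. Genes whose interval lay within 2-fold numbered 9079 to 9407 with 1 library left out. Genes differing by replicate number were 5154 over all 24 libraries and 1671 with at least 10 CPM. The difference in mitochondrial share was 0.0968 to 0.867 points with 1 library left out, lowest without the withdrawal library of replicate 1. For the 5 genes with no copy found in the stretch searched it was 0.284 points, of a smaller share and with nearly the same pair ratios. The length offset, the left-out pairs and the alternatives for the share were chosen after seeing the data. In the alternatives computed for each named gene without leaving out a pair, 9 values brought a gene past the threshold, 8 with DESeq2 and Polr2k with the block, and 54 turned the sign of a gene that passed in none.

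With 1 library left out, the log2 fold change ran from -0.14 to 0.18 for Abtb1, -0.48 to 0.061 for Afp and -0.47 to 0.083 for Atf4. It ran from -0.0032 to 0.24 for Cdkn1a, -3.21 to 2.09 for Col1a1, -0.36 to 0.32 for Gata1 and -0.30 to 0.55 for Gp9. For Hmgcs1 it ran from -0.55 to 0.029, for Hspd1 from -0.31 to 0.12, for Itga2b from -0.081 to 0.37 and for Kit from -0.27 to 0.22. For Klf1 it ran from -0.33 to 0.40, for Lamc1 from -0.29 to 0.28, for Lyz2 from -1.12 to 1.14 and for Mmp14 from -1.21 to 2.11. For Mrpl12 it ran from -0.25 to 0.13, for Pf4 from -0.89 to 0.28, for Polr2a from -0.071 to 0.26 and for Slc2a1 from -0.31 to 0.069. For Tmem123 it ran from -0.056 to 0.012, and for Zfp385a from -0.031 to 0.14. A library left out of one group leaves the replicate numbers unbalanced. With the replicate block Abtb1 was at -0.0014 and Gata1 at -0.014. Kit was at 0.0010 with DESeq2 size factors and 0.00037 in DESeq2. With the length offset Mrpl12 was at 0.038 (0.023 with the block) and Tmem123 at 0.0104 (0.0103 with the block), and Lamc1 was at -0.0091 with the block.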
